A study of Mus musculus with 15 samples.

Results

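H3K4me1 islands are broad stretches of chromatin in which the ChIP-seq reads for monomethylated lysine 4 of histone H3 exceeded the background. All islands that the authors called with SICER in control and Pax6 knockdown (KD) αTN4 cells were compared genome-wide, whether or not a Pax6 peak lay in them. The control list holds 38007 islands and the KD list 18417, together 56424 of the 291642 regions in the deposited lists. Of the control islands, 20448 shared no base with a KD island and are called lost (53.8% of those tested). The other 17559 are called kept (46.2%, 95% Wilson interval 45.7 to 46.7, which like every interval given here covers counting error only). Of the KD islands, 1277 shared no base with a control island and are called new (6.93%, 6.58 to 7.31). These words describe lists of called regions: a lost island can still hold reads in KD cells, and a lower mark in all cells cannot be told apart from its loss in some of them.

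αTN4 is a lens epithelial cell line made from mouse cells transformed with the SV40 T antigen. The control cells carried a control shRNA and the KD cells a shRNA against Pax6, each brought in by lentivirus, and puromycin selected pooled, stably infected populations. The labels do not say which Pax6 shRNA was used, and the study's methods name sh2. Each condition has 1 H3K4me1 library, so no difference between them can be set against replicate error, no p-value is given, and differences between the 2 lines cannot be told apart from differences between the 2 libraries. The Pax6 RNA level of these cells was not analysed here.

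Monomethylation of H3K4 is laid down mainly by MLL3 and MLL4 complexes at enhancers and at the flanks of active promoters, where dimethylation (H3K4me2) overlaps it and trimethylation (H3K4me3) replaces it near the transcription start. Islands without a promoter are therefore often read as candidate enhancers. Pax6 is a paired-domain and homeodomain transcription factor required for lens formation and for the expression of many crystallins, the soluble structural proteins of lens fibre cells.

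The sequences of 8 islands are shown, chosen from the genes and islands named in the results. Each is the reference sequence (NCBIM37, the mm9 build, plus strand, 5′ to 3′) around the summit of the strongest control H3K4me2 peak in the island. Capitals mark any of 15 short words of transcription factor families found on either strand: TGANTCA for AP-1, CCGGAAG for Ets, CAGCTG for the E-box, TGTGGTT for Runx, GGAATG for Tead, CATTGT for Sox, TGACAG for Meis, TAATTA for homeodomain factors, AGATAA for Gata factors, GGGCGGG for Sp/Klf, GGGANTTCC for Nfkb, and longer words for NFI, CTCF, p53 and Maf, of which that of Maf contains the AP-1 word. The first 4 come from lost islands in introns of the 4 genes named first for their runs of lost islands, and those of Fhit and Dlg2 lie inside the run while those of Dlgap2 and Sorcs2 lie outside it: Fhit at chr14:10660962-10661162, Dlg2 at chr7:99026753-99026953, Dlgap2 at chr8:14651202-14651402 and Sorcs2 at chr5:36476045-36476245. Their capitals are a Meis word in Fhit, an E-box and a Gata word in Dlg2 and a Gata word in Sorcs2, and the Dlgap2 window holds none of the 15.
Fhit: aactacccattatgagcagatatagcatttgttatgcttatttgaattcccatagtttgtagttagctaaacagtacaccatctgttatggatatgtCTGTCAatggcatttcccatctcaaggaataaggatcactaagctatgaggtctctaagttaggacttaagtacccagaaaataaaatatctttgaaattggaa
Dlg2: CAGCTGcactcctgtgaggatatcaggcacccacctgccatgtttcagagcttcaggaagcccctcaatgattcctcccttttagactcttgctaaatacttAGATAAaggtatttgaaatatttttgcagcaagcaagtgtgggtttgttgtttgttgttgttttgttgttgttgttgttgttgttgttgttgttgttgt
Dlgap2: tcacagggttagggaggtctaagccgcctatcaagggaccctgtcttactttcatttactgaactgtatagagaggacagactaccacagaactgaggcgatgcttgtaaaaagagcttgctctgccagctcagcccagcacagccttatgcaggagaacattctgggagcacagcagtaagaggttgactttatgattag
Sorcs2: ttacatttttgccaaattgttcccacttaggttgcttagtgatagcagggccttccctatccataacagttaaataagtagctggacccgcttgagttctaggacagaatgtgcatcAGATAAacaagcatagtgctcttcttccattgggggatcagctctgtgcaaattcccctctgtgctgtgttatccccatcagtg

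The next pair are neighbours on chromosome 17 with opposite calls, and many input reads under both: the lost island of the most reads, in an intron of Tcte2 (chr17:13748899-13749099, with a Sox word), and a new island at the promoter of Gm9880 (chr17:13542726-13542926, with an AP-1 word).
Tcte2: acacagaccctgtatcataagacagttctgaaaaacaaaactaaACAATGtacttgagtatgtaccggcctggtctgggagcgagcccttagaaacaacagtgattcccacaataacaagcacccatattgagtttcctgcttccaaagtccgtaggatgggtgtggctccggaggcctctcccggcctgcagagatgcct
Gm9880: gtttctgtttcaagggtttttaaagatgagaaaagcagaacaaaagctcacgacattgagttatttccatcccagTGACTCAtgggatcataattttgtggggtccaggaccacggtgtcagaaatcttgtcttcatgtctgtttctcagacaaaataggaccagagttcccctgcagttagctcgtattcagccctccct

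The last pair come from islands present in both lists with at least 100 reads in each: among these, the one whose read density fell most, in an intron of Plcb1 (chr2:134877781-134877981, with an AP-1, a Meis and a Gata word), and the one whose density rose most, over an exon of Slc16a4 (chr3:107111114-107111314, with none of the 15).
Plcb1: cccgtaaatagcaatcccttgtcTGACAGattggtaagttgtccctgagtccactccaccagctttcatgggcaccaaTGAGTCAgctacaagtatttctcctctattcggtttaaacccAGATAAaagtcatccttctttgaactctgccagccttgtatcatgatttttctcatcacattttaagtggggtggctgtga
Slc16a4: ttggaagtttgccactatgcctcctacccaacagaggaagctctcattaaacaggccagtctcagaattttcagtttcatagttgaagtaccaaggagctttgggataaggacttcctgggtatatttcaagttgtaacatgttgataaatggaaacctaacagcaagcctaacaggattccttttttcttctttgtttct

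An H3K4me2 peak was called at the summit in KD cells too in 6 of these 8 windows, all but those of Gm9880 and Slc16a4. Such windows exist for islands that hold the summit of a control H3K4me2 peak. Among those of distal islands, the AP-1 word was in 12.6% of 9126 lost windows (11.98 to 13.3) and in 9.603% of 8851 windows of islands matched 1 to 1 (9.01 to 10.2). In windows of promoter islands the order was the other way, 6.24% of lost and 7.17% of matched. The share over all 66273 control H3K4me2 summits was 8.74%. The other words lay closer together: the E-box was in 12.6% of distal lost and 12.8% of distal matched windows, the Meis word in 16.3% and 16.8%, and the Gata word in 10.9% of each. The Tead word was in 19.6% of the 245 windows of distal new islands (15.1 to 25.02), in 14.0% of distal lost and in 13.6% of distal matched windows. A word in a window is a description of its letters and not of a bound factor.

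The KD list was shorter, and its islands were wider and had a lower fold over input. Control islands covered 149.2 Mb and KD islands 97.2 Mb, and the median island was 3200 bp wide in the first list and 4400 bp in the second. The median number of ChIP reads in an island was 59 in the control list and 75 in the KD list, and that of reads of the control library was 40 and 49. The files leave that library unnamed. It is taken as an input, and the term input reads is used for it. The median fold over the scaled input, as SICER gave it, was 3.51 and 2.61. Both lists shared 73.2 Mb, which is 49.1% of the control length and 75.4% of the KD length. Of the control length outside it, 58.0 Mb lay in lost islands and 17.96 Mb was trimmed from kept islands, and KD islands extended over 18.3 Mb beyond the control islands they met and over 5.63 Mb in new ones. Lost islands held 38.9% of the control length and 32.7% of its ChIP reads. No library total is given in the files. From the folds of the islands and the input reads per kb of matched islands, the KD ChIP library was estimated at 1.09 times the control ChIP library and the KD input at 0.821 times the control input. This estimate depends on the widths of the called islands, and the part of depth in the shorter list was not tested.

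Most kept islands met their counterpart 1 to 1: 13763 control islands did so, called matched here. Another 703 were split over 1486 KD islands, 2324 were joined into 1126 KD islands, and 769 control and 765 KD islands overlapped in larger groups. Lost islands were narrow and held few reads, at medians of 2600 bp and 47 ChIP reads against 4000 bp and 90 reads for matched islands. Their fold over input was close to that of matched islands, at medians of 3.41 and 3.62. Split islands were the widest class, with a median of 10800 bp and 263 reads. New islands had a median of 62 ChIP reads, a width of 4200 bp and a fold of 1.997, below the 2.64 of matched KD islands.

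The number of ChIP reads in the control island went with whether it was kept. In the lowest decile, islands of 17 to 35 reads, 12.7% were kept (11.7 to 13.8). The share was 31.6% for 52 to 59 reads, 57.2% for 69 to 84 reads and 98.0% for islands of 159 reads or more. Width showed the same order. Islands of 1200 to 2000 bp were kept in 21.8% of cases, those of 2200 to 4000 bp in 38.2%, those of 4200 to 8000 bp in 69.8% and those over 16 kb in 98.6%. Density in reads per kb ordered the islands too, from 19.1% in the lowest decile to 74.2% in the highest. The fold over input did not: the share kept was 37.5% in the lowest decile, 51.6% in the seventh and 43.8% in the highest. Narrow KD islands held more reads than control islands of the same width. Among islands of exactly 2000 bp the lowest count was 30 in the control list and 35 in the KD list, and 824 of the 1523 lost islands of that width held fewer reads than the 5th percentile of KD islands, 41. At 4000 bp this was 123 of 530 lost islands. At 6000 bp it was 12 of 118, and the 5th percentile was 74 in the KD list and 76.5 in the control list, so the KD list did not have the higher value at that width.

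**Figure D1:**
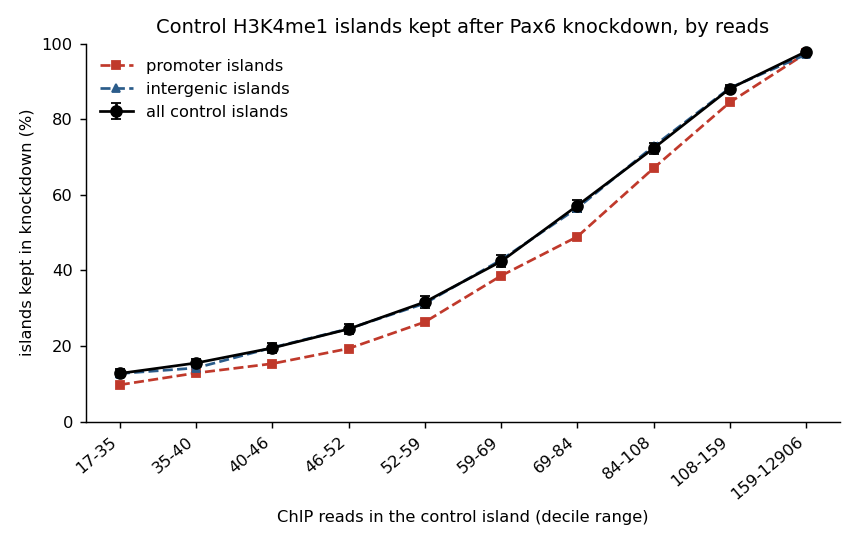
Percent of control H3K4me1 islands that overlapped a KD island (vertical axis) in deciles of the ChIP reads in the control island (horizontal axis), for all islands (black, with 95% Wilson intervals), promoter islands (red) and intergenic islands (blue). The share rises from 12.7% in the lowest decile to 98.0% in the highest, and the promoter line lies below that of all islands throughout.

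Promoter islands, which reach within 2 kb of a protein-coding transcription start, were kept less often than distal ones. The share kept was 42.6% of 9534 promoter islands (41.7 to 43.6) and 47.4% of 28473 distal islands (46.8 to 48.0). Among distal islands it was 54.2% over exons, 49.8% in introns and 43.8% between genes, so intergenic islands were close to promoters. Median reads per island were 59 at promoters, 70 over exons, 59 in introns and 57 between genes. At 69 to 84 reads, 49.0% of promoter and 56.6% of intergenic islands were kept, and promoter islands were the lower of the pair in each of the 10 deciles of reads but the highest, where they were at 97.6% and 97.2%. Promoter islands were also less often new: 4.80% of KD promoter islands had no control island, against 7.53% of KD distal islands.

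Other marks of the same cells set distal islands apart more than gene place did. Distal islands with a control H3K4me2 peak were kept in 54.0% of 20585 cases and those without in 30.03% of 7888. With an RNA polymerase II (Pol2) peak the share was 67.9%, without 45.8%. Distal islands with H3K4me2 held a median of 69 reads and those without 45, and those with Pol2 held 106, so the number of reads moved with both marks, and its part in these shares was not tested. At promoters, islands with an H3K4me3 peak were kept in 41.0% and those without in 44.3%, at 60 and 59 median reads. Of KD distal islands without control H3K4me2, 29.1% were new, and of those with it 2.21%.

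Islands with a Pax6 peak are 378 of the 38007, and 83 of them were lost, so 78.0% were kept against 45.9% of islands without Pax6. Their median was 131 reads against 59, and the shares were therefore also taken at like reads. With few reads they were kept about as often as others: 18.8% of 48 islands of 30 to fewer than 60 reads, against 21.2% of islands without Pax6. Of those with 60 to fewer than 120 reads, 69.6% of 125 were kept, against 59.9%. At 120 reads or more it was 97.5% of 204 against 94.7%. Of the 20448 lost islands, 20365 had no Pax6 peak in control cells, as had 37629 of all 38007 control islands. A Pax6 peak lay in 0.406% of lost, 1.68% of kept and 0.995% of all control islands.

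H3K4me2, measured in separate libraries of both lines, was still called in most lost islands. Of the lost islands, 14520 overlapped a control H3K4me2 peak (71.0%), and 12761 of these also overlapped a KD H3K4me2 peak (87.9%, 87.3 to 88.4). In kept islands the second share was 93.3%. At promoters the pair were 97.1% in lost and 98.0% in kept islands, over exons 79.4% and 92.1%, in introns 82.0% and 91.5%, and between genes 84.1% and 91.7%. The strength of the H3K4me2 peak went with this. In the lowest tercile of H3K4me2 fold, peaks in lost islands were kept in 54.1%, those in kept islands in 54.8% and those outside control islands in 51.0%. In the middle tercile the values were 94.2%, 95.6% and 92.0%, and in the highest tercile every peak was kept in all 3 settings. Within a tercile these shares lay close together, whether the H3K4me1 island around the peak was kept or lost.

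New islands differed in their other marks. A control H3K4me2 peak lay in 29.7% of them and a KD H3K4me2 peak in 27.1%, against 86.8% and 82.3% of matched KD islands. Pol2 was present in 4.54% of new islands and 15.1% of matched ones. H3K4me2 peaks of newborn lens, a tissue and not a cell line, lay in 22.4% of new, 34.1% of lost, 35.3% of matched and 62.2% of split islands. The median distance was 7.2 kb from a new island to the nearest control island and 23 kb from a lost island to the nearest KD island, but the control list is the longer one, so these distances are not compared.

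The share of islands kept differed between chromosomes. It was lowest on X, at 14.5% of 440 islands, followed by chromosomes 12 (23.2%), 18 (23.3%) and 16 (24.96%), and was highest on chromosomes 2 (57.5%), 3 (58.5%), 17 (59.2%) and 15 (61.5%). The intervals of the lowest 4 and the highest 4 do not overlap. The input reads moved with it: the chromosome medians of input reads per kb of control islands ran from 7.92 on chromosome 12 to 15.6 on chromosome 3, and over the 20 chromosomes they correlated with the share kept at a Pearson r of 0.95 and a Spearman rho of 0.95. Among islands of 30 to fewer than 60 reads r was 0.94, and among those of 60 to fewer than 120 reads it was 0.96. The median fold of a chromosome correlated with the share kept at −0.94. These are descriptions over chromosomes of the same 2 libraries, and the part of the input in the share kept was not tested.

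**Figure D2:**
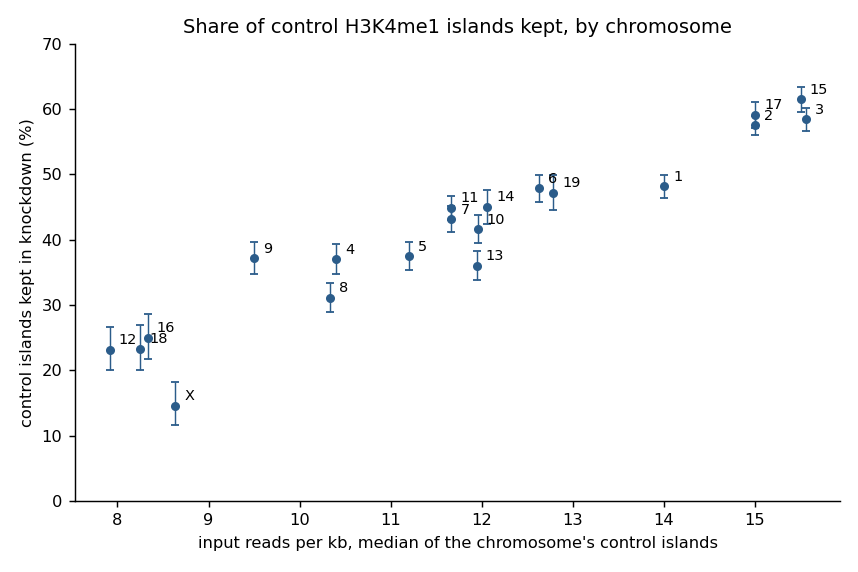
Each point is a chromosome: the median input reads per kb of its control islands (horizontal axis) and the percent of its control islands kept in KD cells (vertical axis). Chromosomes X, 12, 18 and 16 lie at the lower left, with 14.5% to 24.96% kept, and chromosomes 2, 3, 15 and 17 at the upper right, with 57.5% to 61.5%.

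Many lost islands stood next to each other in runs. With 53.8% of control islands lost, runs also form in a random order, and whether these runs are longer was not tested. In genome order the 20448 lost islands formed 7716 runs, of which 3365 were a single island, and 1110 runs of 5 or more held 8498 of them (41.6%). The longest runs had 35 islands, on chromosome 18 from 42282001 to 53410200 and on X from 137239201 to 143363600, and lie on chromosomes where few islands were kept. Density was ranked only among the 206 runs of 10 or more islands. Of the 5 densest of these, 4 lay over groups of 3 to 13 genes. The fifth, 11 islands in 126.6 kb of chromosome 16 (29913601 to 30040200), lay over Gm1968 with no promoter island and no H3K4me3 peak. On chromosome 11, 11 islands in 87.8 kb (68820001 to 68907800) were lost over a group of genes that includes Aurkb, a mitotic kinase, and Vamp2, a vesicle membrane protein. On chromosome 6, 10 islands in 93.4 kb (82977001 to 83070400) were lost over genes that include Dok1, Loxl3 and Htra2. All 11 and all 10 of these islands overlapped an H3K4me2 peak in both lines, 7 and 9 of them overlapped an H3K4me3 peak, and their reads ran from 29 to 91 and from 28 to 94. The dense runs were picked from those of 10 or more islands, by islands per length, after the values were seen.

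Of the protein-coding genes, 12702 had a control island in the gene body or within 10 kb of it, and 152 of these had a run of at least 5 neighbouring islands lost (1.20%). Only genes with 5 or more islands could hold such a run, and of these 1876 genes the share was 8.10% (6.95 to 9.42). The count of 152 rests on weak islands and on the gene window. It was 18 with islands of at least 50 reads, 3 with both lists at equal length and 1056 with 50 kb on either side of the gene. All control islands were lost at 5158 genes (40.6%), 4434 of which had 1 or 2 islands. Of the 1876 genes with 5 or more islands, 69 lost every island and 98 lost none. Counted per gene, 19786 of 36569 islands were lost (54.1%). The 12 genes with the longest runs were large, with bodies from 254.4 to 1945.0 kb, and their lost islands held few reads.

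Fhit, a dinucleoside triphosphate hydrolase gene, had the longest run. All 13 islands of the run lay in 978.6 kb of chromosome 14 (10619201 to 11597800), held 28 to 53 ChIP reads each with folds from 2.24 to 8.52, and 10 overlapped an H3K4me2 peak in control cells and 8 in KD cells. The island kept at Fhit held 109 control reads and 56 KD reads, more in control cells than any lost island of the gene. The lost island whose sequence is given above held 50 reads. At Dlg2, which encodes a synaptic scaffold protein, 12 neighbouring islands of 33 to 109 reads were lost over 815.4 kb, while 2 islands were kept and 1 was new. In these runs at Fhit and Dlg2, the H3K4me2 peaks were mostly still called: at Dlg2 9 islands of the run had one in control cells and 10 in KD cells.

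Dlgap2, whose product binds Dlg scaffolds at synapses, lost a run of 10 islands of 23 to 112 reads and kept 6 of 45 to 177 reads elsewhere in its window. Sorcs2, a sorting receptor gene, lost 10 neighbouring islands of 32 to 98 reads and kept 7, among them an island of 623 reads. At Mcc, a gene first described as mutated in colorectal cancer, all 10 control islands were lost, with 33 to 97 reads each, and no KD island was called. An H3K4me2 peak lay in 8 of them in control cells and in 8 in KD cells. Mcc was the sole gene of 583 with 8 or more islands to lose them all. It lies on chromosome 18, where 23.3% of control islands were kept. Runs of 10 also lay at AF064781 and Nckap5. The longest run was 9 at Magi2, which encodes a junctional scaffold, and 8 at Uvrag, which acts in autophagy, at Kirrel3, a cell adhesion gene, at Nfib, a nuclear factor I gene, and at Fam190a. Over the 12 genes the longest runs held islands of 23 to 113 reads, and the kept islands of these genes held 34 to 623 reads, so the counts of lost and kept islands overlapped.

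At the other end, 7 of the 583 genes with 8 or more islands lost none. Rapgef1, an exchange factor for the GTPase Rap, had 11 control islands with 2200 reads and 9 KD islands with 1829. Usp6nl had 10 control islands, Sulf2, a heparan sulfate sulfatase, had 9, and Pacsin2, Ptk2, Mllt4 and Lrp2 had 8 each. Ptk2 encodes focal adhesion kinase, Mllt4 the junction protein afadin, and Lrp2 the endocytic receptor megalin. All 7 lie on chromosomes 2, 15 and 17, where the shares kept were 57.5%, 61.5% and 59.2%.

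**Figure D3:**
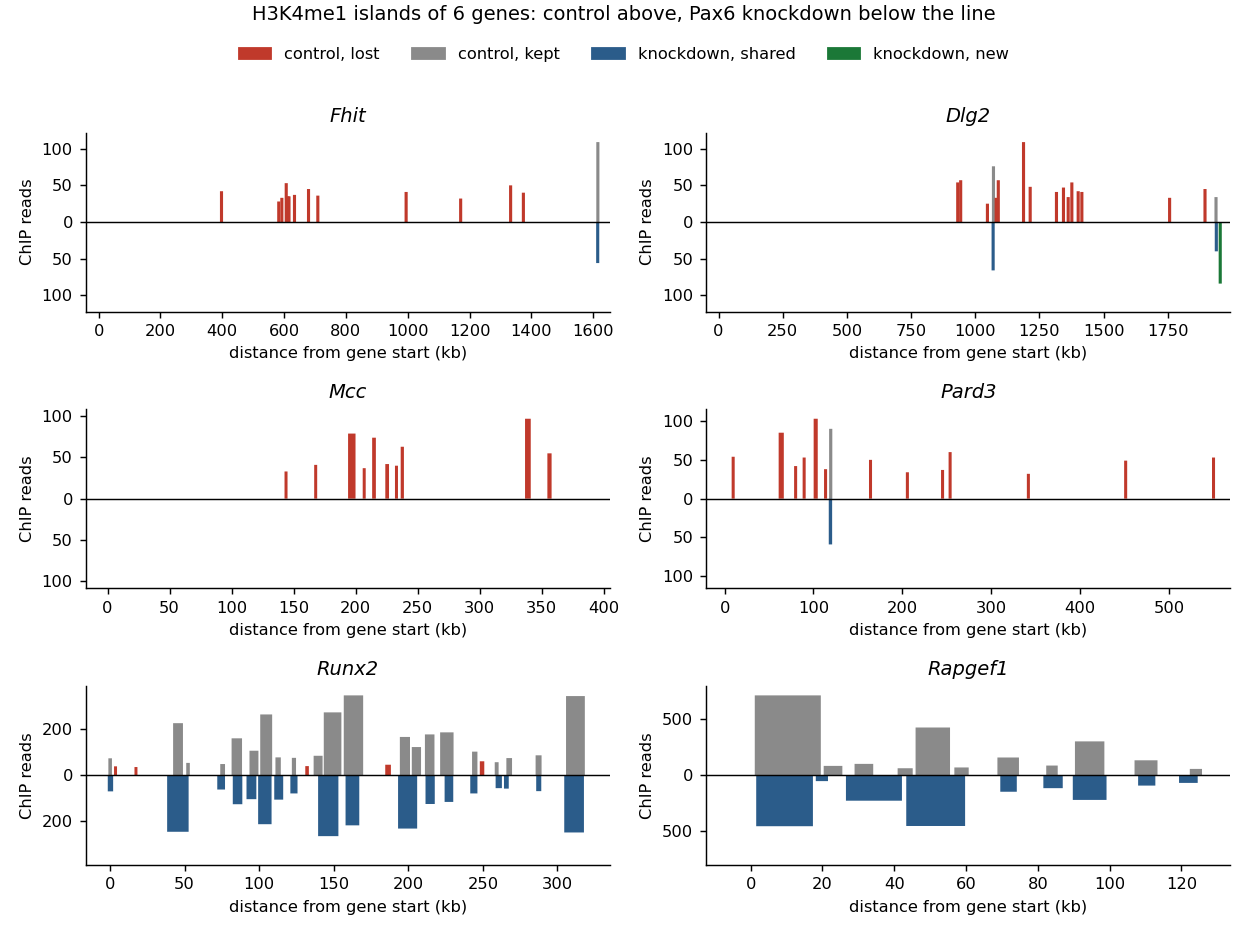
H3K4me1 islands of 6 genes by distance from the gene start in kb (horizontal axis), with the ChIP reads of each island as the height of its bar: control islands above the line (red lost, grey kept) and KD islands below it (blue shared, green new). Fhit, Dlg2, Mcc and Pard3 hold long rows of red bars of low height, while Runx2 and Rapgef1 hold tall grey bars with blue bars under most of them.

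New islands were spread more thinly over genes. Pip5k1b, a phosphoinositide kinase gene, had 5 new islands with 450 ChIP reads in all, and it lost 7 of its 16 control islands. Lyn, a Src family kinase gene, had 4 new islands with 302 reads and covered 13.9 kb in control and 32.1 kb in KD cells. Dennd1a, Clstn2, Acoxl and Slc24a3 had 4 new islands each, with 260 to 278 reads in all. Each of these 6 genes lost islands as well, from 2 at Lyn to 9 at Acoxl, so none only gained.

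Single lost islands with the most reads had many input reads. The lost island of the most reads, 16.6 kb in an intron of Tcte2 on chromosome 17 (13739601 to 13756200), held 519 ChIP and 657 input reads, a fold of 1.68. It was followed by an island of 515 ChIP and 884 input reads at Bckdhb, which encodes a subunit of branched-chain ketoacid dehydrogenase, with a fold of 1.24. The next had 425 reads at 3110070M22Rik and Gm7120, 351 near Prl2c3 and 351 at Elovl4, a very long chain fatty acid elongase gene, with folds of 1.29, 1.51 and 1.32. Bckdhb and Elovl4 are neighbours in a part of chromosome 9 where input was high: control islands from 82 to 84 Mb had a median of 22.98 input reads per kb and those from 84 to 86 Mb 34.7, against 12.8 over all control islands. With a fold of at least 2 asked for, a limit set after the values were seen, the lost islands of the most reads were other ones. An intergenic island on chromosome 1 (158997201 to 159011800), nearest to 1700057K13Rik, held 336 ChIP and 149 input reads at a fold of 4.80. The next lay in the same input-rich part of chromosome 9 (84665601 to 84674200), with 317 ChIP and 294 input reads at a fold of 2.30. A promoter island of Phldb1 held 251 ChIP and 84 input reads at 6.36. An intronic island of Runx1, a transcription factor gene, on chromosome 16 (92777201 to 92791600) held 241 ChIP and 106 input reads at 4.84. The islands named under this limit overlapped an H3K4me2 peak in control and in KD cells. Runx1 lost 3 of its 8 control islands, the others with 64 and 67 reads, and kept 5 of 56 to 182 reads.

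The new islands of the most reads were likewise rich in input. At the Dux genes of chromosome 10 (57683001 to 57702600) a new island held 604 ChIP and 811 input reads, a fold of 1.19. At Gm9880 the counts were 600 and 810, a fold of 1.18. In an intergenic island 50770 bp from Gpm6a, a neuronal membrane glycoprotein gene, they were 390 and 527, also 1.18. St6galnac3, a sialyltransferase gene, had 221 ChIP reads at 1.25, and Fbxo10 had 204 at 1.29. Dux genes lie in near-identical copies, so where their reads belong is uncertain. Of the 50 new islands with the most reads, 25 had a fold under 1.5, against 9 of the 50 lost islands with the most reads and 5.40% of all new islands. With a fold of at least 2, the new islands of the most reads began with an intronic one of Cpt1a, which brings fatty acids into mitochondria (115 ChIP and 64 input reads, a fold of 2.87). An intergenic one 114028 bp from 4933412E24Rik (113 reads) and an intronic one of Parva, a focal adhesion gene (113 reads, 2.74), followed. The next were an intergenic one 114894 bp from Lmo4 (110 reads) and one of Anks1 (108 reads).

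In islands present in both lists, the density of ChIP reads was lower in KD cells, and so was that of input reads. Over the 13719 matched pairs with at least 30 reads in both lists, the median was 22.6 reads per kb in control and 18.2 in KD islands, a median log2 difference (KD minus control) of −0.31. Input reads per kb changed by −0.28 in the same pairs. The fold over input was lower in KD cells in 11442 of all 13763 matched pairs (83.1%), with medians of 3.62 and 2.64. The ratio of raw ChIP to raw input reads hardly moved in the same pairs, at a median log2 difference of −0.01. The fold divides that ratio by the ratio of library sizes, which was estimated at 0.470 for control and 0.626 for KD cells, so the lower fold and this factor moved together. Set relative to the median pair, 549 pairs were lower by 1.5-fold or more (4.0%) and 661 were higher (4.82%). The balance depends on the setting: with at least 100 reads in both lists 80 were lower and 39 higher, and by ChIP over input reads 1238 were lower and 1313 higher. By place, pairs lower by that margin were 3.34% at promoters, 3.10% over exons, 3.93% in introns and 4.78% between genes, and those higher were 4.15%, 5.54%, 5.40% and 4.55%.

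**Figure D4:**
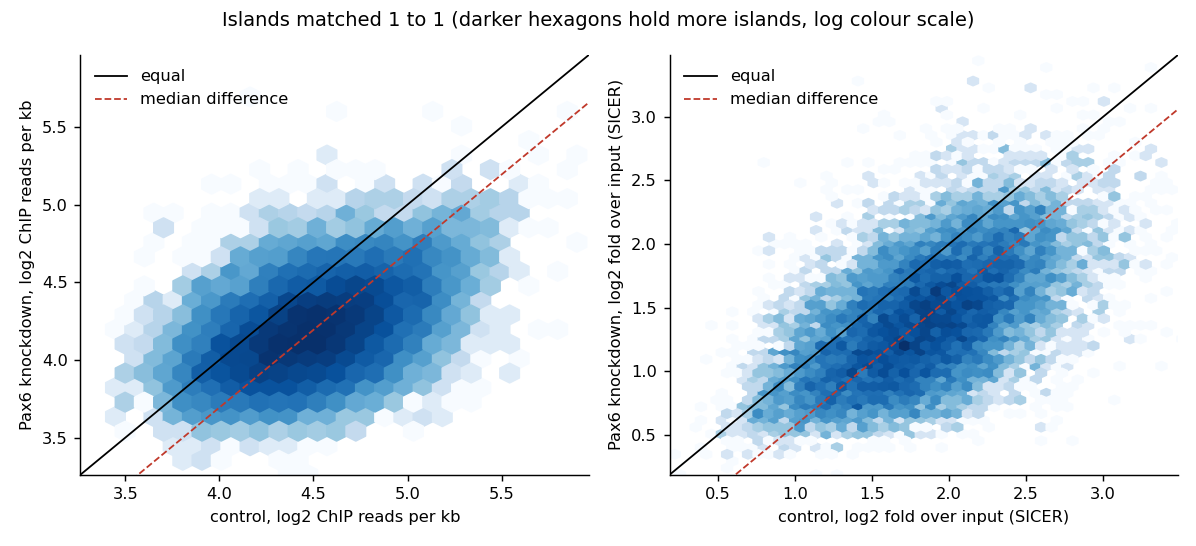
Matched islands in control (horizontal axes) and KD cells (vertical axes), as log2 ChIP reads per kb (left) and log2 fold over input (right), with darker hexagons for more islands. The dashed red line marks the median difference and lies under the black line of equal values in both panels, at −0.31 for reads per kb.

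The width of the called island moved with these differences. Where the KD island was narrower by over 200 bp, 10 of 5388 pairs were lower and 545 higher. Where it was wider by over 200 bp, 515 of 6025 were lower and 43 higher. With widths within 200 bp, 24 of 2306 were lower and 73 higher. Over all pairs the log2 difference in density correlated with that in width at a Pearson r of −0.55, which is a description over islands whose density is computed from that width. Borders seldom stayed in place: 228 pairs had the same borders, in 29.4% the KD island lay inside the control island, in 30.9% the control island lay inside the KD island, and in 38.0% both borders shifted to one side.

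Among the 3120 pairs with at least 100 reads in both lists, the largest fall was in an intron of Plcb1, a phospholipase C gene, where an island of 134 reads over 3.6 kb (134877401 to 134881000 on chromosome 2) became one of 104 reads over 7 kb. Its density fell by 1.02 on the log2 scale relative to the median pair (95% counting interval −1.39 to −0.65). At the promoter of Pfdn2, a prefoldin subunit gene, 146 reads over 4.2 kb became 118 over 8.4 kb. Near Tshz2, a zinc finger gene, 107 reads over 2.8 kb became 147 over 9.4 kb, so the count rose and the density fell. All of the 5 largest falls, with those near Ly6c2 and Gipc2, had a KD island that was wider. The largest rise was at Slc16a4, a gene of the monocarboxylate transporter family, where 109 reads over 6.2 kb became 106 over 3.8 kb, a log2 difference of 0.97. Islands near Blm, a DNA helicase gene (0.89), at Gcm1 (0.88), at Plod2, a collagen lysyl hydroxylase gene (0.86), and near A4galt (0.82) followed. All 5 KD islands were narrower. At Slc16a4, Plcb1 and the other 8 the ChIP counts differed less than the widths did.

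Split and joined islands lay over long marked domains. A control island of 44.6 kb near Gas8 on chromosome 8 (126062001 to 126106600) became 5 KD islands of 2.4 to 11 kb that together cover 26.2 kb. One of 39.4 kb over Col4a2, which encodes a chain of the type IV collagen found in basement membranes such as the lens capsule, became 5 islands that cover 34.2 kb (chromosome 8, 11360801 to 11400200), with 967 control and 662 KD reads. Islands over Atg7 and Vgll4 (55 kb wide), in an intergenic stretch 163145 bp from Gm355 (56.4 kb wide) and in one 119872 bp from Myc (41.8 kb wide) became 4 each. These are the nearest protein-coding genes. Of the 703 split islands, 636 became 2. In the other direction, 5 control islands over Col1a2, a type I collagen gene, that cover 32 kb were joined into 1 KD island of 41.2 kb with 834 ChIP and 918 input reads and a fold of 1.45. Acpl2, Vps37c and Kalrn each had 4 islands joined into 1, and Nt5e and Snx14 had 3. Split islands carried H3K4me2 in 97.7%, Pol2 in 41.7% and a Pax6 peak in 4.98%, against 77.6%, 14.9% and 0.995% of all control islands. They were also wider, at medians of 10800 and 3200 bp, and held more reads, at 263 and 59. A wider island has more room to overlap a peak, and the part of width in these shares was not tested.

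Lists of genes were described by their islands in the gene body and within 10 kb, beside the 54.1% lost over all protein-coding genes. The crystallin genes had 15 islands counted per gene, 13 of them different ones, and lost 5. Crybb1 had 3 islands of 243 to 849 reads and kept all 3, with 1790 control and 992 KD reads. Cryaa had 3 of 127 to 197 reads and kept all 3, with 498 and 400 reads. Cryab, a small heat shock protein of the lens, had 3 islands of 39 to 65 reads and lost all 3. Genes of lens membranes and cytoskeleton lost 4 of 20, and their covered length was 70.2 kb in control and 76.6 kb in KD cells.

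Lens transcription factor genes lost 30 of 64 islands. Pax6 itself had 2: a promoter island of 39 reads at 105507201 to 105509200 on chromosome 2 was lost, and an island of 92 reads at 105529601 to 105533200, at another promoter of the gene, was kept with 52 reads. H3K4me2 was called over both in both lines. Tshz2 had 28 islands and lost 12, Meis1, a homeodomain gene, lost 7 of 10, and Meis2 lost 2 of 8. The single islands of Maf, Hsf4, Pitx3, Lhx2 and Eya1 were lost, with 36 to 115 reads, while the single island of Sox2, of 92 reads, was kept and Gata3 kept 3 of 3. Genes that the study links to Pax6 lost 34 of 78, a list the study chose on cells of this kind. Zfp536 lost 7 of 9 of them and Dhrs3 3 of 3, while Csf1, a growth factor gene, kept 2 of 2.

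Among signalling genes, Notch pathway genes lost 22 of 71 islands, Wnt 30 of 67, TGF-beta and BMP 27 of 53 and FGF 26 of 45. Notch1, a receptor, kept 7 of 7 with 59 to 372 reads. Maml3, a Notch coactivator, lost 10 of 26, 5 of them in 1 run. Smad3, which carries the TGF-beta signal to the nucleus, lost 1 of 7, while Tgfbr3, a coreceptor, lost 5 of 5 with 37 to 55 reads. Wnt7b, a ligand, lost 1 of 6. Receptors of FGF differed: Fgfr1 lost 2 of 2, Fgfr2 2 of 5 and Fgfr3 0 of 1. AP-1 and Ets genes lost 28 of 62, with 7 of 10 lost at Ets1 and 0 of 5 at Maff.

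Adhesion and cadherin genes lost 76 of 118 (64.4%, 55.4 to 72.5). Of the 16 with islands, 4 had a run of at least 5 lost: Cdh4, Magi2, Cdh13 and Pard3. Only genes with 5 or more islands could hold such a run, and over all protein-coding genes 8.10% of these did. Magi2 was also named above for the length of its run. Pard3, a polarity gene, lost 13 of 14, with 32 to 103 reads, and Cdh4, which encodes R-cadherin, 11 of 12. Itgb1, which encodes integrin beta 1, lost 3 of 3, and the widest of them, 14.8 kb on chromosome 8 (131216001 to 131230800), held 222 ChIP and 183 input reads. Cdh13, Pard3 and Itgb1 lie on chromosome 8, where 31.1% of islands were kept. Mesenchymal genes lost 32 of 86, with 5 of 26 at Runx2. Axon guidance genes lost 54 of 104: Plxna2, a semaphorin receptor, lost 1 of 12, and Slit3, a repulsive ligand, 10 of 16. Housekeeping genes lost 22 of 46.

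The genes of the H3K4 methylation machinery had the highest share lost of the 14 lists that are not cell type markers, 27 of 32 (84.4%, 68.2 to 93.1). All islands were lost at 11 of the 16 genes with any. Of all protein-coding genes with an island 40.6% lost them all, as did 61.0% of those with 1 or 2 islands. Among the 11 were the methyltransferases Mll1, Mll3 and Setd1a, the shared complex members Ash2l and Rbbp5, and the demethylases Kdm1a, Kdm5a, Kdm5b and Kdm5c. Setd1a lost 3 of 3, with 41, 55 and 159 reads. Wdr5, Mll2 and Men1 each lost 3 of 4. Mll2 here is the gene with that symbol in the annotation, on chromosome 15 (98662100 to 98701614). It was not matched to the enzyme that the study calls Mll2. These islands held few reads, at a median of 45.5, and 62.5% were at promoters. With islands of fewer than 60 reads, 19 of 21 were lost, against 79.2% of all such islands, and with 60 or more 8 of 11, against 28.3%. H3K4me2 was called at 21 of the lost islands in control cells, and at the same 21 in KD cells. The part of island strength and place in this share was not tested.

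**Figure D5:**
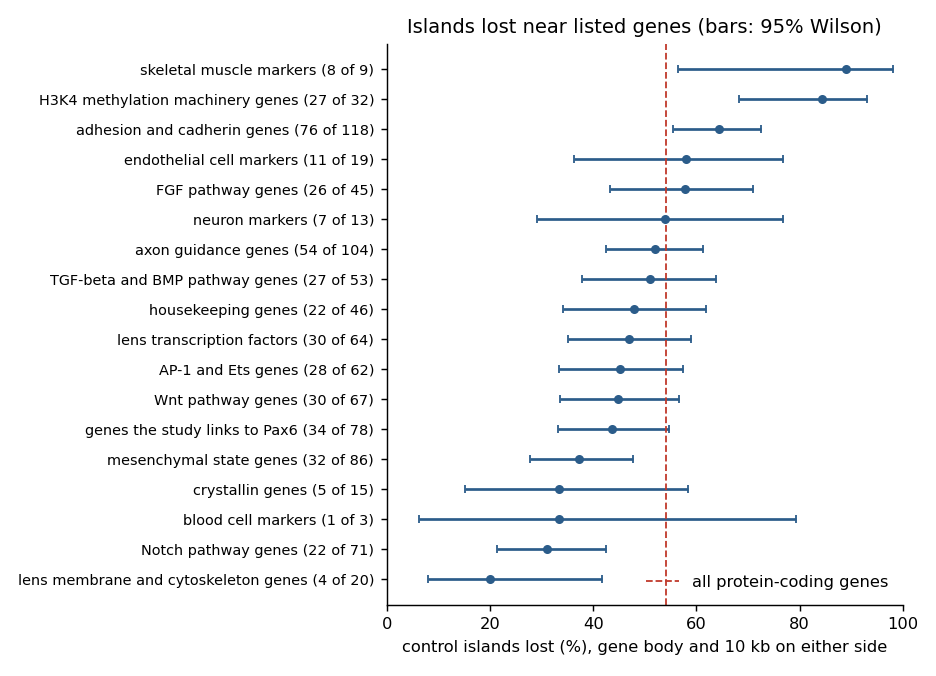
Percent of control islands lost (horizontal axis) for each gene list (vertical axis, with islands lost of islands counted), with 95% Wilson intervals as bars and the 54.1% over all protein-coding genes as a dashed line. H3K4 methylation machinery genes stand at 84.4%, and lens membrane and cytoskeleton genes at 20%.

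Markers of other cell types had few islands. Skeletal muscle markers had 9 islands at 7 of 10 genes and lost 8, neuron markers 13 at 4 of 9 genes and lost 7, endothelial markers 19 at 5 of 10 genes and lost 11, and blood cell markers 3 at 2 of 9 genes and lost 1. Islands over these markers held medians of 48 to 56 reads, less than the 59 of all control islands. Crystallin islands held a median of 74 reads and those of lens membrane and cytoskeleton genes 75.5, within the range of other lists such as Notch pathway genes at 76 and mesenchymal genes at 81.5.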

How the data were processed

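H3K4me1 islands of 1 control and 1 Pax6 KD ChIP-seq library were compared, with peak lists of H3K4me2, H3K4me3, Pol2 and Pax6 beside them. Samples were grouped by title and shRNA label; for Pax6 and Pol2, where one antibody label is swapped, the title was used. The members and the gene lists were chosen with earlier results of these data known.

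Bowtie alignments to mm9 were made by the authors, who called H3K4me1 islands with SICER (window 200 bp, gap 600 bp, FDR 0.001) and other peaks with MACS2 at default settings; versions are not given in the sources used here. The study's methods state that blacklisted regions were filtered out. For each island the authors deposited counts of ChIP and control-library reads, a p-value with its FDR and a fold, which is a ratio scaled by library size. For each MACS2 peak they deposited a fold enrichment (ratio) and −log10 p and q. No library totals are given, so islands set the precision: the lowest count is 17 ChIP reads in the control list and 23 in the KD list. SICER's p was recomputed from the counts, and the ratio of library sizes it implies was taken as the estimate of depth.

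Islands were grouped by overlaps of at least 1 bp. Genes are protein-coding symbols of GENCODE vM1 on NCBIM37 (22203 used, 51684 transcript starts), after 31 read-through transcripts that hold 4 or more other genes were left out. Read densities are reads per kb of each list's own island. The named genes were the 12 with the longest runs of lost islands, the 6 with the most new islands, the 5 lost and 5 new islands of the most reads, the 5 largest falls and rises among pairs of at least 100 reads, the 5 islands of most splits and joins, and members of each list with the most islands or the largest share lost. Sox1, Tfap2a, Map2 and Spi1 were not analysed here. Alternatives covered overlap, FDR, list length, reads, depth, promoter width, fold and gene window. The scripts were tested on simulated data. The tools were pandas 2.3.3, NumPy 2.4.6, matplotlib 3.10.9 and SciPy 1.17.1 under Python 3.11.15.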

Additional observations from a re-analysis of the deposited data

How the results depend on the processing

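Of the values computed under other settings, 15 stayed near the reported value and 24 moved. The share of control islands kept, 46.2% as reported, was 42.6% with at least 50% of an island covered, 47.6% with islands within 1 kb counted, 43.2% at an FDR of at most 1e-06, 59.0% with at least 50 ChIP reads in both lists and 72.7% with the control list limited to as many islands as the KD list by most reads. With control reads scaled to the estimated KD depth, 99.99% of control islands would still pass SICER's Poisson p, but this scaling raises ChIP and lowers input reads, so islands could hardly fail and the value says nothing about depth. With ChIP reads scaled by the median density change of matched pairs in place of the estimated depth, 87.8% would. This alternative was chosen after seeing the data, and the change comes only from islands called in both lists. The share of KD islands that were new, 6.93%, was 15.6%, 6.39%, 6.15%, 14.9% and 24.9% under these first 5 settings, in the same order. The promoter share kept minus the distal share, −4.74 percentage points, was −3.25 at equal list length and −16.0 with place taken from the island's centre, and between −3.90 and −5.50 elsewhere, deciles of reads included, which were added after seeing the data. Matched pairs of lower density, 549 against 661 higher, were 1238 against 1313 by ChIP over input reads, 31 against 52 at 2-fold, and 80 against 39 with at least 100 reads, where lower pairs outnumbered higher ones. Genes with 5 or more neighbouring islands lost, 152, were 3 at equal list length, 18 with at least 50 reads, 98 in the gene body alone and 1056 with 50 kb on either side. The share of lost islands with H3K4me2 kept, 87.9%, was 91.3% at equal list length, 90.1% with at least 50 reads and 87.0% with H3K4me2 peaks of −log10 q of at least 5. The cause of these moves was not tested beyond the settings' own construction. No paired analysis was possible because each condition has 1 library. The intervals do not cover the spread between libraries.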

Other observations

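Among the 9501 protein-coding genes with no control island in the gene body or within 10 kb, 125 had a KD island there (1.32%, 95% Wilson interval 1.11 to 1.57). Impg1, which encodes a proteoglycan of the matrix around photoreceptors, had 2 new islands with 202 ChIP reads, and Ttc38 had 2 with 142. Cbx8, a Polycomb group gene, had 2 KD islands with 137 reads, of which 1 was new and the other overlapped a control island that lay outside the window.

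Base composition differed little between the classes. The median GC content was 45.2% in lost islands, 45.6% in matched control islands and 44.0% in new ones. By quintiles of GC content, 39.4% of control islands were kept in the lowest quintile and 49.6% in the fourth, where median input reads per kb were 14.2 and 12.3.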
